A study of Rana omeimontis with 6 samples.

Results

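The transcripts for making, storing and breaking down glycogen were followed in the liver of tadpoles of the frog Rana omeimontis across ontogenetic fat accumulation. The series holds 6 poly-A selected, paired-end liver RNA-seq libraries, 3 labelled before and 3 labelled after fat accumulation, and its title asks how hepatic fat relates to somatic growth and energy metabolism. Both groups are wild-collected tadpoles of the same species, and the labels name no treatment, genotype or age. The labels do not say whether a library is 1 animal or a pool, so p-values measure only the spread between these libraries, which may be technical. Levels are FPKM, the fragments of a transcript cluster per unit of its length and of the library's mapped fragments. The clusters are called features here.

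Glycogen is a branched store of glucose. Glycogenin primes the chain, UDP-glucose supplies the sugar, glycogen synthase lengthens the chain and the branching enzyme adds branch points. Phosphorylase takes it apart, and phosphoglucomutase links its product to glucose 6-phosphate. Protein phosphatase 1, carried to glycogen by targeting subunits, switches the synthase on and the phosphorylase off, and phosphorylase kinase does the reverse to the phosphorylase. In the vertebrate liver the store feeds blood glucose between meals.

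The members described here came from 121726 features. They are 23 features whose first protein description contained one of 8 set wordings for these proteins, plus 4 features described as the branching enzyme, a listed member whose description holds none of those wordings. These 27 features named 17 proteins. PPP1R32 and PPP1R36, with 4 features, entered only because their names begin like those of the targeting subunits, and they are not glycogen-targeting subunits. The liver form of glycogen synthase and the uridylyltransferase that makes UDP-glucose were not analysed here. At least 1 FPKM in at least 3 libraries was reached by 16 of the 27 features, for 13 proteins, and by 40548 features in all. PPP1R3B feature 1 passed through its 3 after libraries alone, so it had to differ, and its values below are a description with no test. Just inside the limit PPP1R32 feature 1 reached 1 FPKM in before replicates 1 and 3 and after replicate 2, at 1.56, 4.6 and 1.12. Just outside it PGM5 did so only in before replicate 3 at 1.27 and after replicate 1 at 1.42.

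The libraries held much pancreatic RNA, and their labels name liver. Features described as digestive enzymes of pancreatic acinar cells took 21.8 to 33.9% of the summed FPKM before and 25.9 to 33.8% after. All 8 listed markers had a matching feature, but bile salt-activated lipase lay at only 0.91 to 4.95 FPKM and GP2 at 0 to 7.8. Of 40 tested pancreatic features 4 were higher and 4 lower after (limma, adjusted p under 0.05), with a median difference of -0.24. Of all 40548 tested features 8.64% passed in either direction, the share to set beside this count and the marker counts below. The pancreatic features thus did change between the stages, in both directions. The pancreatic part of each glycogen transcript was not measured. Features described as hepatocyte products took 0.668 to 0.773% before and 1.15 to 1.27% after, from 9 of 10 listed markers, haptoglobin being unmatched. Summed hepatocyte marker FPKM was 9627 to 10794 before and 15679 to 17510 after. The markers did not move alike: 4 of 16 tested features were higher and 0 lower (limma, adjusted p under 0.05), with a median difference of 0.23. Albumin went from 15.0 to 69.8 FPKM before to 353 to 539 after, and transthyretin from 41.9 to 151 to 1107 to 1388. Complement C3, at 284 to 476 before and 245 to 289 after, and prothrombin, at 556 to 778 and 580 to 748, overlapped. These marker sums run beside every increase given below, their part in which was not tested except by rescaling, and in bulk RNA more cells of a type and more RNA per cell cannot be told apart. Summed erythrocyte markers were 7871 to 9967 FPKM before and 11881 to 12439 after, with 1 of 7 tested features higher. Summed enterocyte markers were 67.4 to 131 before and 151 to 233 after, but of 6 tested features 1 was higher and 1 lower, with a median of -0.62. Sucrase-isomaltase went from 43.3 to 69.3 FPKM before to 135 to 206 after and villin-1 from 20.2 to 27.8 to 6.36 to 12.4. Summed macrophage and endothelial markers overlapped between the stages. Lysozyme, at 3054 to 8608 FPKM, made up most of the macrophage sum of 3140 to 8677. CD163, MARCO and von Willebrand factor were unmatched. Muscle markers, with creatine kinase M-type and nebulin unmatched, summed to 181 FPKM in after replicate 1 and to 4.57 to 21.5 in the other 5 libraries. Summed FPKM per library was 1358660 to 1442120 and the most frequent ratio of low values to after replicate 1 was 1.03 to 1.05. Absolute depth is unknown, and features of a few FPKM are the least precise.

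After fat accumulation PYGL (glycogen phosphorylase, liver form), PPP1R3C (protein phosphatase 1 regulatory subunit 3C) and GYS1 (glycogen [starch] synthase, muscle) were higher. They were 3 of the 15 tested members that reached 1 FPKM in a library of each stage, and 0 were lower. These 15 include PPP1R32 feature 1, which matched by name alone, and leave out PPP1R3B feature 1. Of all 37733 such features 6.20% passed the threshold (limma, Benjamini-Hochberg adjusted p under 0.05) and 3.71% did so as higher. With PPP1R3B (protein phosphatase 1 regulatory subunit 3B), whose direction the filter fixed, the fit called 4 of 16 members, against 8.64% of all 40548 features. At an unadjusted p under 0.05 stood the same number of members and 26.6% of all features. The median difference over the 15 members was 0.48 on the log2(FPKM + 1) scale, against -0.06 over all features present in both stages. That scale understates the change of low genes. The stages did not overlap in 5 of the 15 members, 4 of them higher after, against 27.5% of all such features, 14.0% higher. The 4 include PYGB feature 2 (glycogen phosphorylase, brain form), at 0 to 1.47 FPKM before and 1.48 to 1.64 after. With PPP1R3B feature 1 the stages did not overlap in 6 of 16, against 32.5% of all features.

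**Figure D1:**
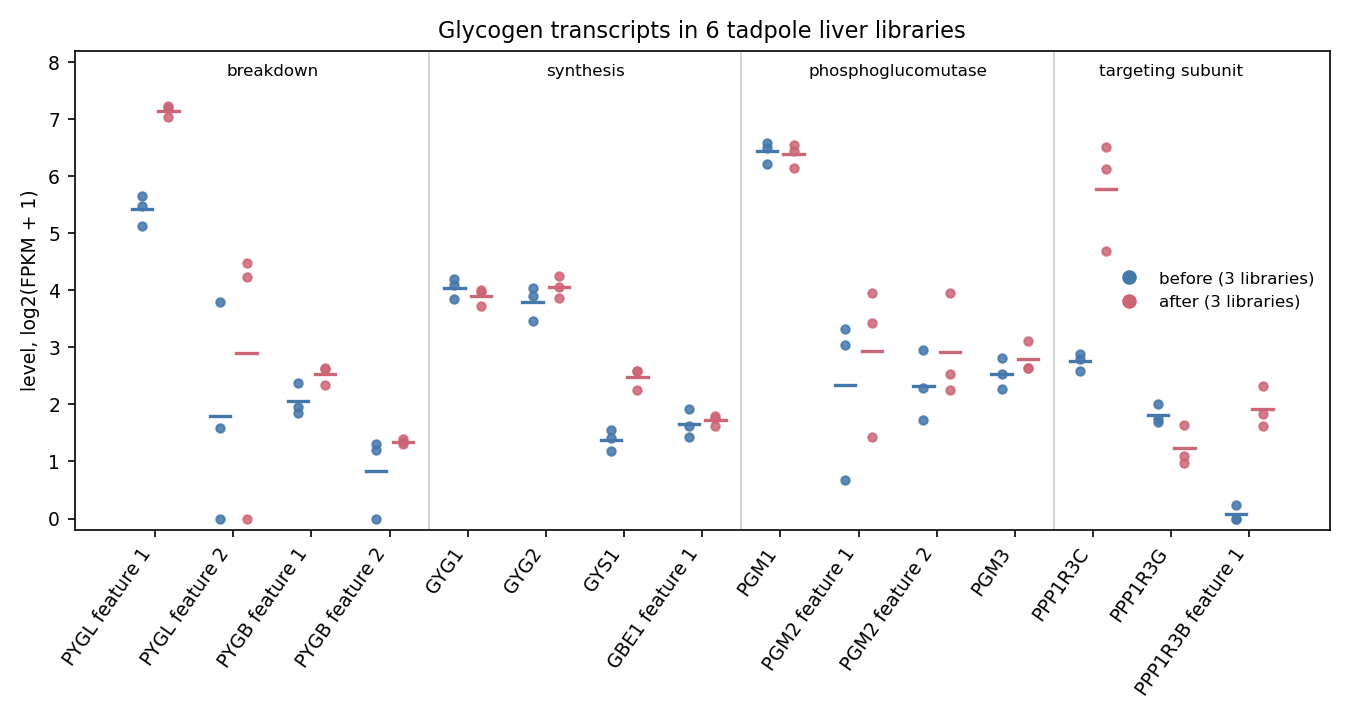
Levels of 15 glycogen features that passed the filter, as log2(FPKM + 1), by role, with PPP1R3B feature 1 and without PPP1R32 feature 1. Points are libraries (3 before in blue, 3 after in red) and bars are stage means. PYGL feature 1, PPP1R3C, GYS1 and PPP1R3B feature 1 stand higher after with no overlap, while PGM1, GYG1 and GYG2 overlap.

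Among the enzymes of breakdown PYGL had the highest level and the largest called difference. PYGL, the glycogen phosphorylase, liver form, cuts glucose 1-phosphate from the chain ends. Its main feature, Cluster-8914.33569, measured 49.2, 34.2 and 43.7 FPKM in before replicates 1 to 3 and 130.4, 149 and 145 in after replicates 1 to 3. Every after library was above every before library, and the after libraries lay close together. The mean rose from 42.3 ± 7.58 to 141 ± 9.75 FPKM (SD, n = 3 each), 3.34-fold, with a log2 difference of 1.73 ± 0.186 (SE, limma, adjusted p = 0.00695). It passed without each library in turn, with adjusted p from 0.0212 to 0.0396. A second feature with the same description, Cluster-8914.34981, showed 2.02, 12.9 and 0 before, then 0, 17.7 and 21.2 after. That feature varied as much within a stage as between stages (log2 difference 1.10, limma, adjusted p = 0.672). The sum of both PYGL features was 51.2, 47.1 and 43.7 before and 130.4, 167 and 166 after, with an SD of 3.76 before and 20.8 after, against 7.58 and 9.75 for the main feature alone. The sum differed by 1.68 (limma, adjusted p = 0.00593). Such sums add features normalized by their own lengths and can count shared reads unequally.

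The other phosphorylases were minor. The brain form PYGB measured 3.22 ± 0.852 before and 4.82 ± 0.653 FPKM after in its larger feature (0.48, 95% interval -0.11 to 1.07, limma, adjusted p = 0.280). Its smaller feature showed 1.47, 0 and 1.3 before, then 1.48, 1.52 and 1.64 after (limma, adjusted p = 0.465). The muscle form PYGM lay below the filter at 0.3 to 0.6 before and 0.2 to 0.4 after. PYGL made up 89.1 to 94.2% of the summed phosphorylase FPKM before and 94.9 to 96.5% after. Phosphorylase transcripts in these libraries were thus mainly described as the liver form at both stages. Both PYGL features took that description from an alligator sequence, and the PYGB and PYGM features took theirs from Xenopus sequences.

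Among the enzymes of synthesis GYS1 was higher after. GYS1, which in mammals is the form of muscle and most other tissues, measured 1.65, 1.94 and 1.26 FPKM before and 3.74, 5.03 and 4.98 after. Every after library was above every before library. The mean rose from 1.62 ± 0.341 to 4.58 ± 0.731 FPKM, with a log2 difference of 1.09 ± 0.243 (SE, n = 3 each, limma, adjusted p = 0.0423). GYS1 missed the threshold without each library in turn, with adjusted p from 0.0655 without after replicate 1 to 0.133 without after replicate 2. It also missed it with each library scaled to its summed hepatocyte markers, an alternative chosen after seeing the data (0.57, limma, adjusted p = 0.147). After replicate 1, the library with the high muscle markers, held the lowest GYS1 level of the 3 after libraries. Whether muscle RNA added to the GYS1 levels was not tested. PYGL stood at 24.3 to 34.6 times the GYS1 level before and at 33.1 to 34.9 times after, so the range of this ratio after lay partly inside that before.

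The primer proteins did not pass. GYG1 (glycogenin-1) measured 16.1, 13.4 and 17.4 FPKM before and 12.2, 14.7 and 15.1 after (-0.14, 95% interval -0.62 to 0.33, limma, adjusted p = 0.696). GYG2 (glycogenin-2), which in humans is found mainly in liver, measured 10.01, 15.4 and 14.0 before and 13.6, 15.7 and 18.1 after (0.26, 95% interval -0.29 to 0.82, limma, adjusted p = 0.529). The stages overlapped in both, and the ranges of the glycogenins overlapped at each stage. The description of GYG1 came from a python sequence. Scaled to the hepatocyte markers GYG1 was lower after (-0.81, limma, adjusted p = 0.0294), as were 22.2% of all features.

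GBE1, the 1,4-alpha-glucan-branching enzyme, was split over 4 features, of which 1 passed the filter. That feature measured 2.19 ± 0.558 before and 2.32 ± 0.212 FPKM after (0.070, 95% interval -0.52 to 0.66, limma, adjusted p = 0.885). The other GBE1 features ranged from 0 to 3.46 FPKM. Summed over the 4 features GBE1 was 7.27, 3.54 and 4.17 before and 3.67, 5.02 and 6.7 after, which overlap (0.052, 95% interval -0.72 to 0.82, limma, adjusted p = 0.938). Before replicate 1 held the highest sum and before replicate 2 the lowest.

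PGM1 (phosphoglucomutase-1), which interconverts glucose 1-phosphate and glucose 6-phosphate in both directions of the pathway, was abundant at both stages. It measured 73.3, 95.2 and 89.6 FPKM before and 93.04, 85.9 and 69.9 after. The stages overlapped widely (-0.054, 95% interval -0.50 to 0.39, limma, adjusted p = 0.885). Scaled to the hepatocyte markers instead it was lower after (-0.76, limma, adjusted p = 0.0267), as were 22.2% of all features.

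PGM2, which in mammals acts mainly on pentose phosphates, was split over 2 features that traded places between libraries. The first measured 9.01, 0.59 and 7.19 FPKM before and 9.71, 14.5 and 1.69 after, and the second 3.87, 6.77 and 2.31 before and 4.77, 3.78 and 14.5 after. Neither passed (limma, adjusted p = 0.723 and 0.534). Their sum was steadier, at 12.9, 7.36 and 9.5 before and 14.5, 18.3 and 16.2 after. The summed PGM2 stages did not overlap, with a difference of 0.69 (95% interval 0.10 to 1.28, limma, adjusted p = 0.134). PGM3, of the hexosamine pathway, measured 4.87 ± 1.098 before and 6.04 ± 1.38 after (limma, adjusted p = 0.571).

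**Figure D2:**
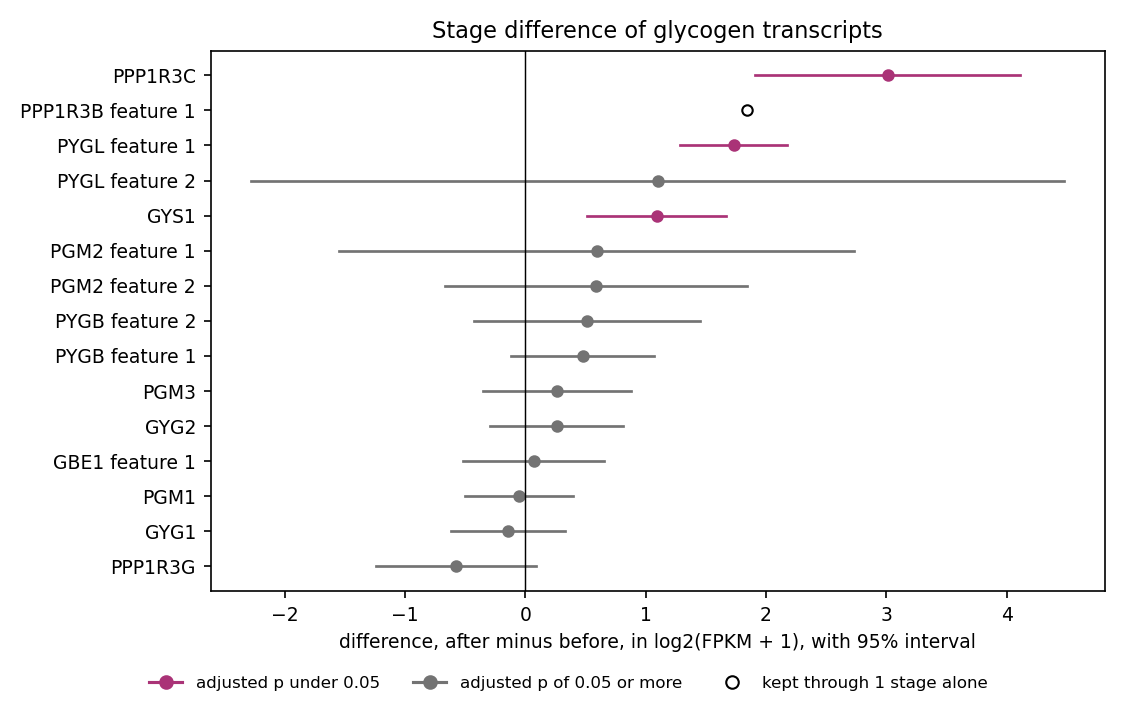
Difference between the stages, after minus before, in log2(FPKM + 1) for the 15 glycogen features that passed the filter, with 95% intervals from limma. PPP1R32 feature 1 is left out. The 3 features past the threshold are in purple, from GYS1 at 1.09 to PPP1R3C at 3.01, the open point is PPP1R3B feature 1, which the filter kept through the after libraries alone, and the widest interval is that of PYGL feature 2.

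Of the tested targeting subunits PPP1R3C was higher after. Its difference over all 6 libraries was the largest of the members on the log2(FPKM + 1) scale. PPP1R3C, also known as protein targeting to glycogen, measured 5.92, 5 and 6.42 FPKM before and 24.7, 68.5 and 89.8 after. All after libraries were higher, but they spread widely, with after replicate 1 lowest. The mean rose from 5.78 ± 0.720 to 61.0 ± 33.2 FPKM, 10.5-fold, with a log2 difference of 3.01 ± 0.463 (SE, n = 3 each, limma, adjusted p = 0.0168). Without after replicate 1 the difference was 3.56 (limma, adjusted p = 0.00666). Without any of the other libraries it missed the threshold, at adjusted p from 0.0511 without before replicate 3 to 0.0659 without after replicate 2.

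PPP1R3B, which carries the phosphatase to glycogen in mammalian liver, was close to 0 before. Its main feature had values of 0 in before replicates 1 and 2, of 0.18 FPKM in before replicate 3, and then 2.54, 2.06 and 3.99 after. The difference was 1.84 on the log2(FPKM + 1) scale and 4.34 with a pseudocount of 0.1, so its size is set by the pseudocount. A pair of smaller features, below the filter, carried the same description. Summed over its 3 features PPP1R3B was 0.23, 0.36 and 0.18 before and 3.55, 3.55 and 4.56 after. In the sum each before library held some signal and the after libraries lay close together (difference 1.96 in log2(FPKM + 1)).

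PPP1R3G, a subunit described in mouse liver, ran the other way in value. It measured 2.34, 2.25 and 3.01 FPKM before and 1.14, 2.12 and 0.96 after. The stages did not overlap, but the difference missed the threshold (-0.58, 95% interval -1.24 to 0.089, limma, adjusted p = 0.247). Scaled to the hepatocyte markers it passed as lower after (-1.03, limma, adjusted p = 0.0346), as did 22.2% of all features. PPP1R3D lay below the filter, at 0.36 to 1.08 before and 0 to 0.35 after. PPP1R3C held 61.9 to 64.3% of the summed targeting-subunit FPKM before and 83.02 to 94.2% after, while that sum went from 7.97 to 9.98 FPKM before to 29.7 to 95.3 after. Whether the subunits differed from each other in their response was not tested. PPP1R32, which matched by name alone, lay at 0.56 to 4.6 before and 0.61 to 1.12 after in the feature that passed the filter (limma, adjusted p = 0.499), and its other 2 features and PPP1R36 at 0 to 1.03.

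**Figure D3:**
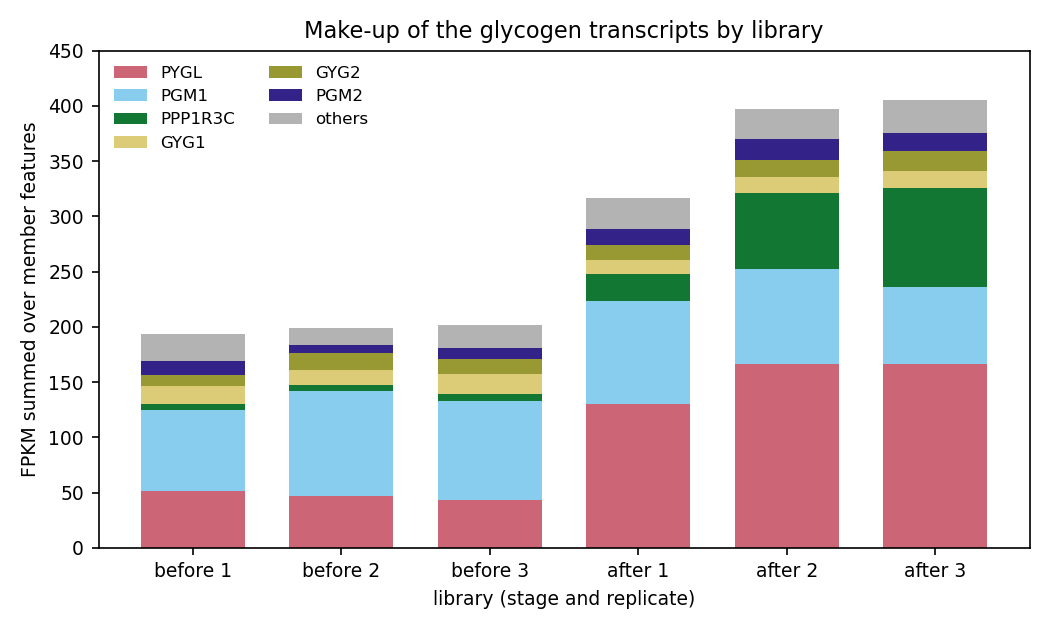
FPKM summed over the features of each glycogen protein, stacked by library, without PPP1R32 and PPP1R36. The stacks reach 194 to 201 FPKM before and 317 to 406 after, and PYGL and PPP1R3C are larger in every after library than in any before library.

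The order of the levels differed between the stages. Before, PGM1 stood highest at 86.0 ± 11.4 FPKM, above PYGL at 47.3 ± 3.76 and GYG1 at 15.6 ± 2.07, with no overlap between PGM1 and PYGL or between PYGL and GYG1. After, PYGL stood highest at 154 ± 20.8, above PGM1 at 82.9 ± 11.8 with no overlap, and PPP1R3C came next at 61.0 ± 33.2, overlapping PGM1. GYG1, GYG2 and PGM2 followed at 14.0 to 16.3 FPKM and overlapped. From GBE1 down to PPP1R3G neighbours before fat accumulation overlapped in their ranges. These are FPKM summed over the features of a protein, per length of transcript. PYGL took 21.7 to 26.4% of the summed glycogen FPKM before and 41.0 to 41.9% after, PGM1 37.9 to 47.9% and 17.2 to 29.3%, and PPP1R3C 2.52 to 3.19% and 7.78 to 22.1%.

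The 3 increases were compared under other scalings of the libraries. PYGL feature 1 had a log2 difference of 1.59 with quantile normalization and 1.78 with the libraries rescaled without the pancreas markers. Scaled to the summed hepatocyte markers the median of all features moved to -0.56. On that scale PYGL feature 1 was higher by 1.02 (limma, adjusted p = 0.0148) and PPP1R3C by 2.35 (limma, adjusted p = 0.0191), while GYS1 missed the threshold. Of all calls on that scale 1091 were higher and 9015 lower, against 1882 and 1620 on the deposited scale. This scaling rests on a sum in which the markers did not move alike. The part of hepatocyte marker levels in these increases was not tested beyond it.

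**Figure D4:**
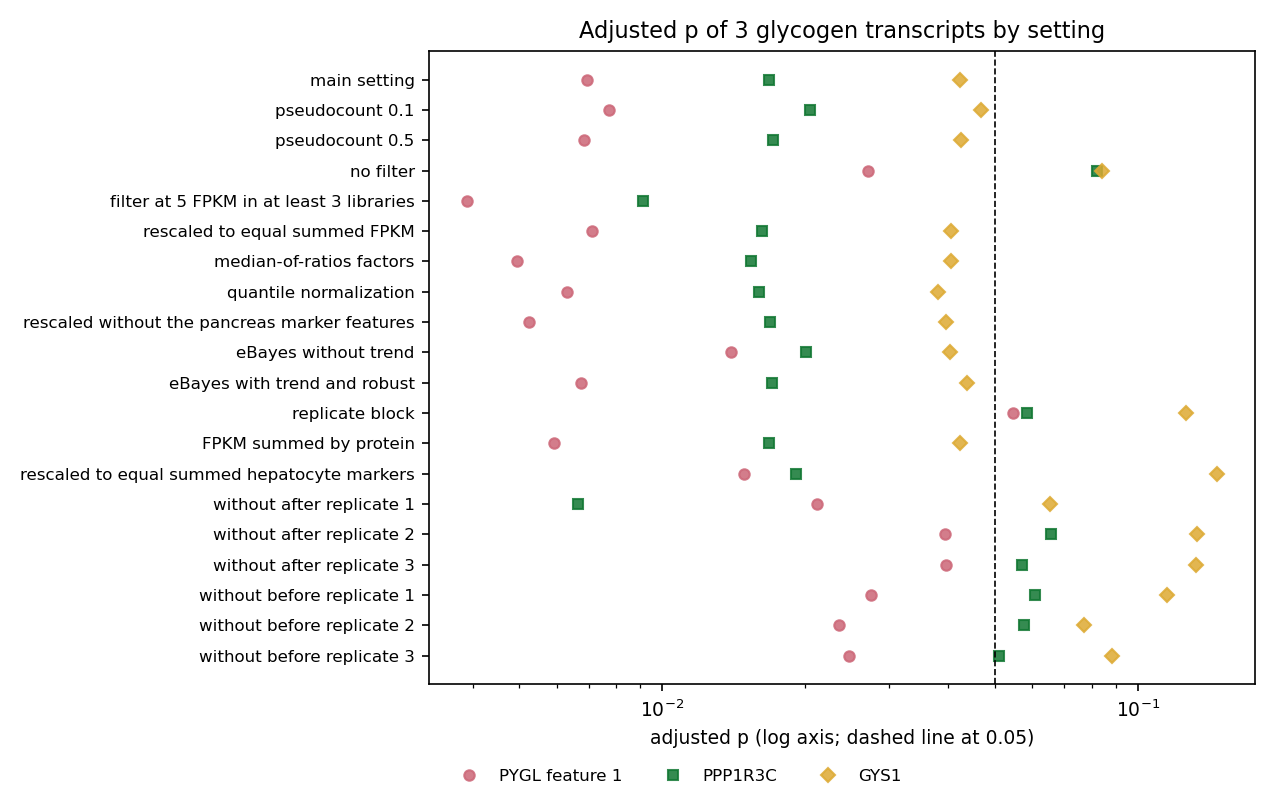
Adjusted p of PYGL feature 1, PPP1R3C and GYS1 under each setting of the processing, on a log axis with a dashed line at 0.05. These were the 3 tested members past the threshold in the main setting. PYGL feature 1 lies left of the line in every setting except the replicate block, while GYS1 lies right of it whenever a library is left out.

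Other genes of the pathway came from a list of kinases, phosphatases, glucose-handling enzymes and hormone-signalling proteins. Of its 30 tested features 1 was higher and 3 lower after, with a median of -0.12, against 8.64% of all features past the threshold. Scaled to the hepatocyte markers 1 was higher and 10 were lower, against 2.69% and 22.2% of all features. The 10 include insulin receptor substrate 2, at 1.77 to 2.26 FPKM before and 0.68 to 0.94 after. That feature passed the filter through the before libraries alone, which fixed its direction. The same held for 1717 of all features. The increase in the list was STBD1, the starch-binding domain-containing protein that tethers glycogen to membranes for lysosomal uptake. STBD1 measured 3.73, 2.54 and 2.38 FPKM before and 15.8, 10.6 and 12.6 after, with no overlap. It rose from 2.88 ± 0.738 to 13.04 ± 2.63 FPKM (1.85 ± 0.252 SE, limma, adjusted p = 0.0124) and missed the threshold in 1 of the 6 fits that each omit a library, that without after replicate 3 (adjusted p = 0.0568). The lysosomal alpha-glucosidase that digests glycogen there measured 9.47 ± 1.68 before and 9.39 ± 0.185 after (0.0011, 95% interval -0.49 to 0.49, limma, adjusted p = 0.998).

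The features that were lower belonged to 3 entries of the list. A feature of the glucokinase regulatory protein, the nuclear inhibitor of glucokinase, measured 47.8, 13.8 and 30.8 FPKM before and 8.32, 5.8 and 4.76 after (-1.99, limma, adjusted p = 0.0445). The other 2 features with that description did not pass on the deposited scale. Scaled to the hepatocyte markers, the feature at 15.6 FPKM before and 13.7 after passed as lower (-0.86, limma, adjusted p = 0.0244), as did 22.2% of all features. The 4 features of glucokinase itself lay below the filter. Insulin receptor substrate 4, an adaptor of insulin signalling, went from 4.41 ± 0.75 to 1.26 ± 0.605 FPKM (-1.28, limma, adjusted p = 0.0417). Both features of insulin receptor substrate 1 missed the threshold on the deposited scale (0.15 and -0.94, limma, adjusted p = 0.717 and 0.0864). The 2 features of the insulin receptor lay below the filter. The catalytic PP1-beta subunit, which the targeting subunits carry, went from 55.8 ± 11.1 to 29.6 ± 1.88 FPKM (-0.88, limma, adjusted p = 0.0440). Its description came from a human sequence. The PP1-gamma feature missed the threshold (-0.83, limma, adjusted p = 0.425). When a library was omitted, the glucokinase regulatory protein and insulin receptor substrate 4 held their calls in 1 of 6 fits each and PP1-beta in 0. The highest adjusted p was 0.137 (without after replicate 3), 0.129 (without before replicate 1) and 0.124 (without after replicate 3).

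**Figure D5:**
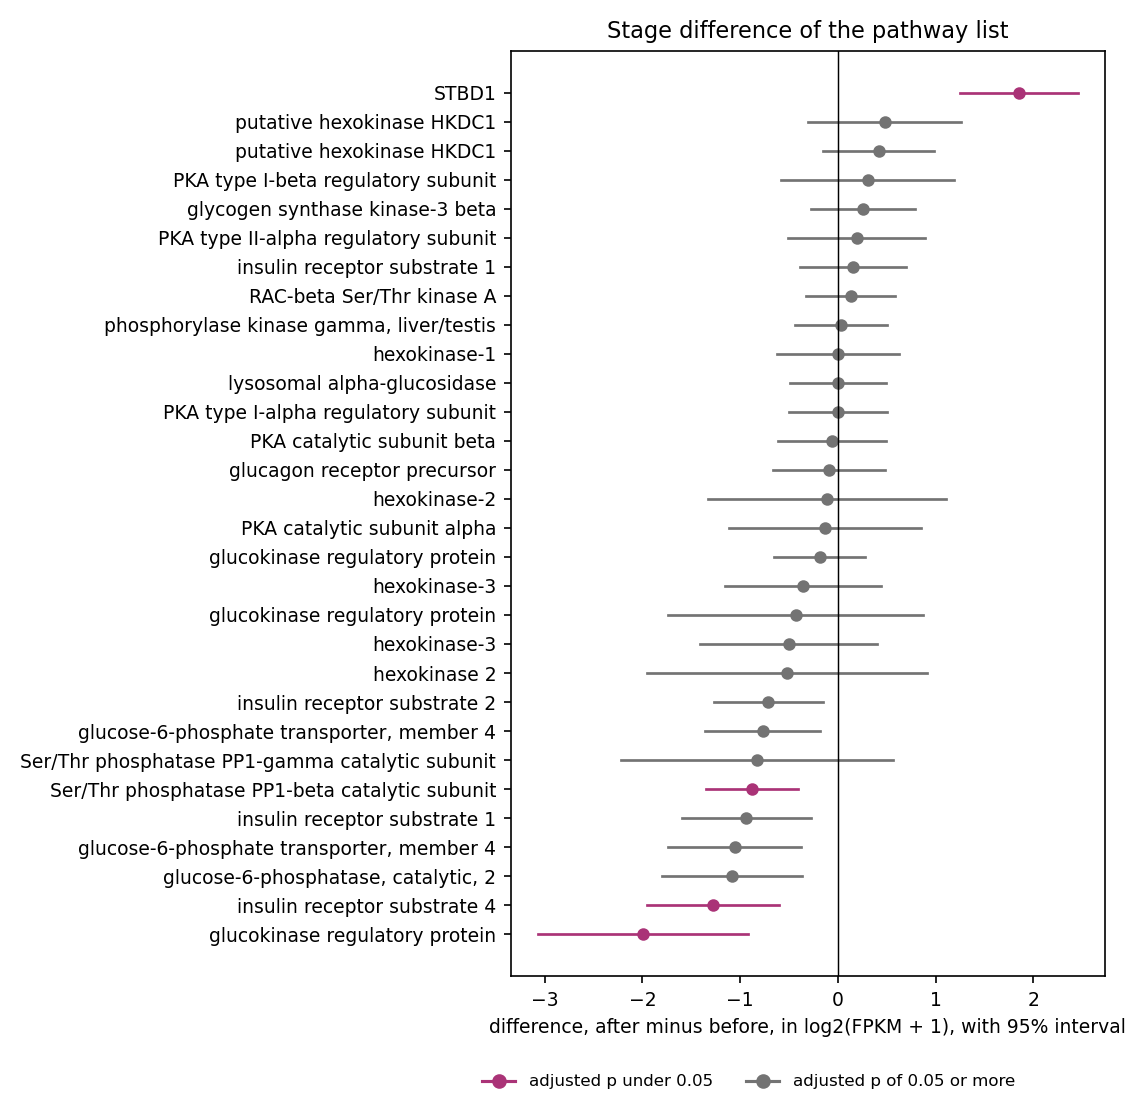
Difference between the stages, after minus before, in log2(FPKM + 1) for the 30 tested features of the pathway list, with 95% intervals from limma. STBD1 at 1.85 is the only increase past the threshold and the 3 decreases run from -0.88 to -1.99. The feature of insulin receptor substrate 2 was kept through the before libraries alone.

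The protein kinases tested from the list and the glucagon receptor did not pass on the deposited scale. The liver and testis form of the phosphorylase kinase catalytic chain measured 20.9 ± 2.03 FPKM before and 21.5 ± 3.47 after (0.031, 95% interval -0.44 to 0.50, limma, adjusted p = 0.939), and the other 22 phosphorylase kinase features lay below the filter. GSK3B, a kinase that inhibits glycogen synthase, measured 3.70 ± 0.685 before and 4.57 ± 0.19 after (0.25, limma, adjusted p = 0.526). The glucagon receptor, which sets off glycogen breakdown, measured 3.99 ± 0.14 and 3.75 ± 0.919 (-0.090, limma, adjusted p = 0.849). RAC-beta, the insulin-activated kinase also called AKT2, measured 10.8 ± 1.15 and 11.9 ± 0.89 (limma, adjusted p = 0.711). The feature described as glucose-6-phosphatase, catalytic, 2 measured 833, 428 and 612 before and 374, 283 and 216 after. The stages did not overlap and the difference was short of the threshold (-1.08, limma, adjusted p = 0.0735). Whether this feature is the form of liver or of another tissue was not tested. Scaled to the hepatocyte markers it passed as lower after (-1.80, limma, adjusted p = 0.0102), as did 22.2% of all features. On that scale both features of the glucose-6-phosphate exchanger, which brings the substrate to glucose-6-phosphatase, passed as lower too (-1.76 and -1.45, limma, adjusted p = 0.00999 and 0.0144). On the deposited scale they missed the threshold (-1.06 and -0.77, limma, adjusted p = 0.0690 and 0.101). The cAMP-dependent protein kinase type I-alpha regulatory subunit passed as lower only with that scaling (-0.71, limma, adjusted p = 0.0430), which moved the median of all features to -0.56. On the deposited scale its stages overlapped, with a difference of -0.00033 (limma, adjusted p = 0.999).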

How the data were processed

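The authors deposited 1 matrix of FPKM values per transcript cluster and library, with a protein description for 37708 of 121726 clusters. Per the labels' protocols RNA was extracted with Trizol, selected on poly-T beads and sequenced as paired-end reads. Assembler, aligner and FPKM program were each not given in the sources used here, and no genome was used. R 4.3.3 and limma 3.58.1 fitted the difference of the stages in log2(FPKM + 1), two-sided, with eBayes and a trend. The filter asked for 1 FPKM in 3 libraries, which kept 40548 features, and the threshold was an adjusted p of 0.05 (Benjamini-Hochberg). No count model fits FPKM. All library columns were used and no pair of libraries was identical. Gene symbols are those of the described proteins. Among the members 1 feature that the set wordings took is not reported here and stands in no member count. The members, lists and tests were chosen with earlier results of these data known. All members, list genes past the threshold and up to 10 regulators could be named. The fit was checked on artificial data with known differences. Alternatives covered pseudocounts, filters, scalings, eBayes settings, summed features, a replicate block and leaving out each library. Scaling to hepatocyte markers, and counts over features that reached the minimum in a library of each stage, were added after seeing the data.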

Additional observations from a re-analysis of the deposited data

How the results depend on the processing

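The count of 4 of 16 members past the threshold includes PPP1R3B feature 1. Without a filter the count was 1 of 27, against 1024 of all 121726 features. With a filter at 5 FPKM, which tests neither GYS1 nor PPP1R3B feature 1, it was 2 of 8. That share was close to the one over all features, 2866 of 12750. With 1 library left out the count of members ranged from 1 to 3, while the count over all features ranged from 691 to 1867. With the replicate number as a block 0 members passed in limma (adjusted p = 0.0546 for PYGL feature 1), and 339 of all features. The labels name no animal or batch shared by libraries of the same number. Deviations of same-numbered libraries from their stage means correlated at -0.0049, -0.039 and -0.088, and those of differently numbered libraries at -0.031 to 0.067. With 3 libraries of a stage, whether a number stands for a shared source cannot be told from these values. Scaling to hepatocyte markers turned the sign of PGM2 feature 2 (-0.0041), PYGB feature 1 (-0.093), PGM3 (-0.34), GYG2 (-0.41) and GBE1 feature 1 (-0.42), none past the threshold. It gave 6 calls among 16 members, 3 higher and 3 lower, against 2.69% and 22.2% of all features. The 3 higher include PPP1R3B feature 1, whose direction the filter fixed. With 1 library left out the differences of PGM1 ran from -0.16 to 0.063, of PGM2 feature 1 from -0.24 to 1.35 and of GBE1 feature 1 from -0.045 to 0.20. The cause was not tested. Pseudocounts of 0.1 and 0.5, the other scalings, eBayes settings and summing by protein left PYGL, PPP1R3C and GYS1 past the threshold. PPP1R3B stayed past it too, but the filter fixed its direction. Without before replicate 3, 66.8% of all calls were higher, against 53.7%. Depth is unknown, so no counting error can be given.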
